A study of Mus musculus with 13 samples.

Results

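Fat tissue, white and brown, surrounds the adrenal gland in mice. The genes described here are 10 transcripts typical of white and brown fat cells, Adipoq, Fabp4, Plin1, Cidec, Pparg, Lpl, Cfd, Retn, Ucp1 and Car3, and every probe set annotated to 1 of these symbols alone was used. Of the 10 genes, 8 were measured by 15 probe sets, among 18193 genes measured in all, and Plin1 and Cfd are named only. The arrays came from mice on a C57BL/6 background that carried a transgene expressed in the neural crest, the embryonic source of the sympathetic nervous system, and that were killed once a neuroblastoma could be felt. The oncogene was mutated ALK (mutALK, n = 3), which codes for a receptor tyrosine kinase, MYCN (n = 4), which codes for a transcription factor, or the pair of them, labelled "MYCN AND mutated ALK" and called double transgenic here (n = 3). Normal adrenal gland of C57BL/6 mice served as the control (n = 3). The labels give no ages, no treatment was applied, and it is not stated whether each array holds RNA of another animal. Title numbers were shared by mutALK 2 and 3 and by MYCN 2 and 3. The p-values therefore measure the spread between these 13 arrays, part of which may be technical. The double transgenic arrays have sample numbers and a title form apart from those of the other arrays. Whether they were processed apart is not stated, and such a difference could not be told apart from genotype.

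White fat cells store triglyceride in a single large droplet and secrete hormones such as adiponectin. Brown fat cells hold many small droplets and burn fatty acids to make heat, which they do through an uncoupling protein in the mitochondrial membrane. The nuclear receptor PPARG, together with factors of the C/EBP family, drives the genes of both cell types, and a depot of brown fat lies beside the kidney and adrenal gland in mice. In RNA of whole tissue, fewer cells of a type and less RNA per cell cannot be told apart.

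The promoters shown are those of Adipoq, of Cidec and Retn, which of the members with an entry had the profiles closest to it over the arrays, and of Ucp1, the defining gene of brown fat. They are given as the 250 bases before the transcription start in RefSeq, mouse assembly GRCm38.p6, where 7 of the 10 genes had an entry and 5 of these also had a probe set. Capitals mark matches on either strand to the motifs searched, which were the TATA box TATAAA, the CCAAT box CCAAT, the nuclear receptor core AGGTCA, the direct repeat of that core with any 1 base between, which PPAR and RXR receptors bind, the C/EBP core TTGCNNAA and the E-box CACGTG that MYC proteins bind. Every match to the direct repeat also holds the core. Adipoq encodes adiponectin and lies at chr16:23146286-23146535 on the plus strand.
Adipoq: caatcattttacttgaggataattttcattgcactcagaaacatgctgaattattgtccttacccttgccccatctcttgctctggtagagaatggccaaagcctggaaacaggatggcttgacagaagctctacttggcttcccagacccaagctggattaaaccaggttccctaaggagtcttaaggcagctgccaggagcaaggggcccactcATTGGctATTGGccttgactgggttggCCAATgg
Cidec encodes a protein that enlarges lipid droplets, and the more downstream of its start sites lies at chr6:113434765-113435014 on the minus strand.
Cidec: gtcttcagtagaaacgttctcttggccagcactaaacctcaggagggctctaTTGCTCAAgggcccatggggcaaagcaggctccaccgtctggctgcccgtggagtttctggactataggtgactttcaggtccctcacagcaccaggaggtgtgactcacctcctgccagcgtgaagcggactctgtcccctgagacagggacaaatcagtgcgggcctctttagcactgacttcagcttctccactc
Ucp1 encodes the uncoupling protein of brown fat, with its window at chr8:83290098-83290347 on the plus strand.
Ucp1: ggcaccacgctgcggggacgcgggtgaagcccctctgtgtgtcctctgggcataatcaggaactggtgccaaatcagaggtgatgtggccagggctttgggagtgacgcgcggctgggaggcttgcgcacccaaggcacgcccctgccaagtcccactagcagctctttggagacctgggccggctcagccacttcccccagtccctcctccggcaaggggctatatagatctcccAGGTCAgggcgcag
Retn encodes resistin, a fat hormone, with its window at chr8:3655520-3655769 on the plus strand.
Retn: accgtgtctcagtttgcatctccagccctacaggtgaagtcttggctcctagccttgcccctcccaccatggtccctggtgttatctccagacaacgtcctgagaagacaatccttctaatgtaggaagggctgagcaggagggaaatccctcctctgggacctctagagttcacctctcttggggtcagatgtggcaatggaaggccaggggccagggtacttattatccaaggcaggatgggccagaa

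The Adipoq window held 3 CCAAT boxes, at bases 30 to 34, 23 to 27 and 3 to 7 before the start. CCAAT was found in 33.8% of the 32851 mouse promoters of this length. The Cidec window held 1 C/EBP core, TTGCTCAA, at bases 198 to 191 before the start, and 9.56% of all promoters held this motif. The Ucp1 window held 1 receptor core, AGGTCA, at bases 14 to 9 before the start, against 14.0% of all promoters. No letters searched for were found in the Retn window or in the window of the other Cidec start site, at chr6:113435761-113436010. Pparg, the member with the profile closest to that of Ucp1, had 3 windows on the plus strand. That at chr6:115360894-115361143 held 1 receptor core, that at chr6:115362099-115362348 held 1 TATA box, 1 CCAAT box and 1 receptor core, and that at chr6:115421816-115422065 held 2 CCAAT boxes and 2 C/EBP cores. The full direct repeat, the TATA box and the E-box were found in 0.0335%, 12.4% and 6.02% of all promoters and in none of the 4 windows shown. These matches describe the letters only.

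The members were far lower in tumours than in adrenal gland. All 8 measured members passed the test as lower in the mutALK, the MYCN and the double transgenic group, where 21%, 24.8% and 24.2% of all genes did so (limma, Benjamini-Hochberg adjusted over all genes). Their median log2 difference from adrenal was -5.19 in mutALK, -3.79 in MYCN and -6.26 in the double transgenic group, and the median of all genes lay between -0.03 and 0.00201. Each of the 15 probe sets was lower in each comparison when every probe set was tested on its own, against 18.5%, 22% and 22.6% of all probe sets. In 8, 7 and 8 members no tumour array of the group reached the lowest adrenal array, against 24.1%, 26.7% and 26.7% of all genes. These 3 comparisons share the same adrenal arrays. Values are on the log2 scale of the authors' RMA summaries, levels are means ± SD, differences are first group minus second ± SE, and a difference of 1 is a doubling.

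**Figure D1:**
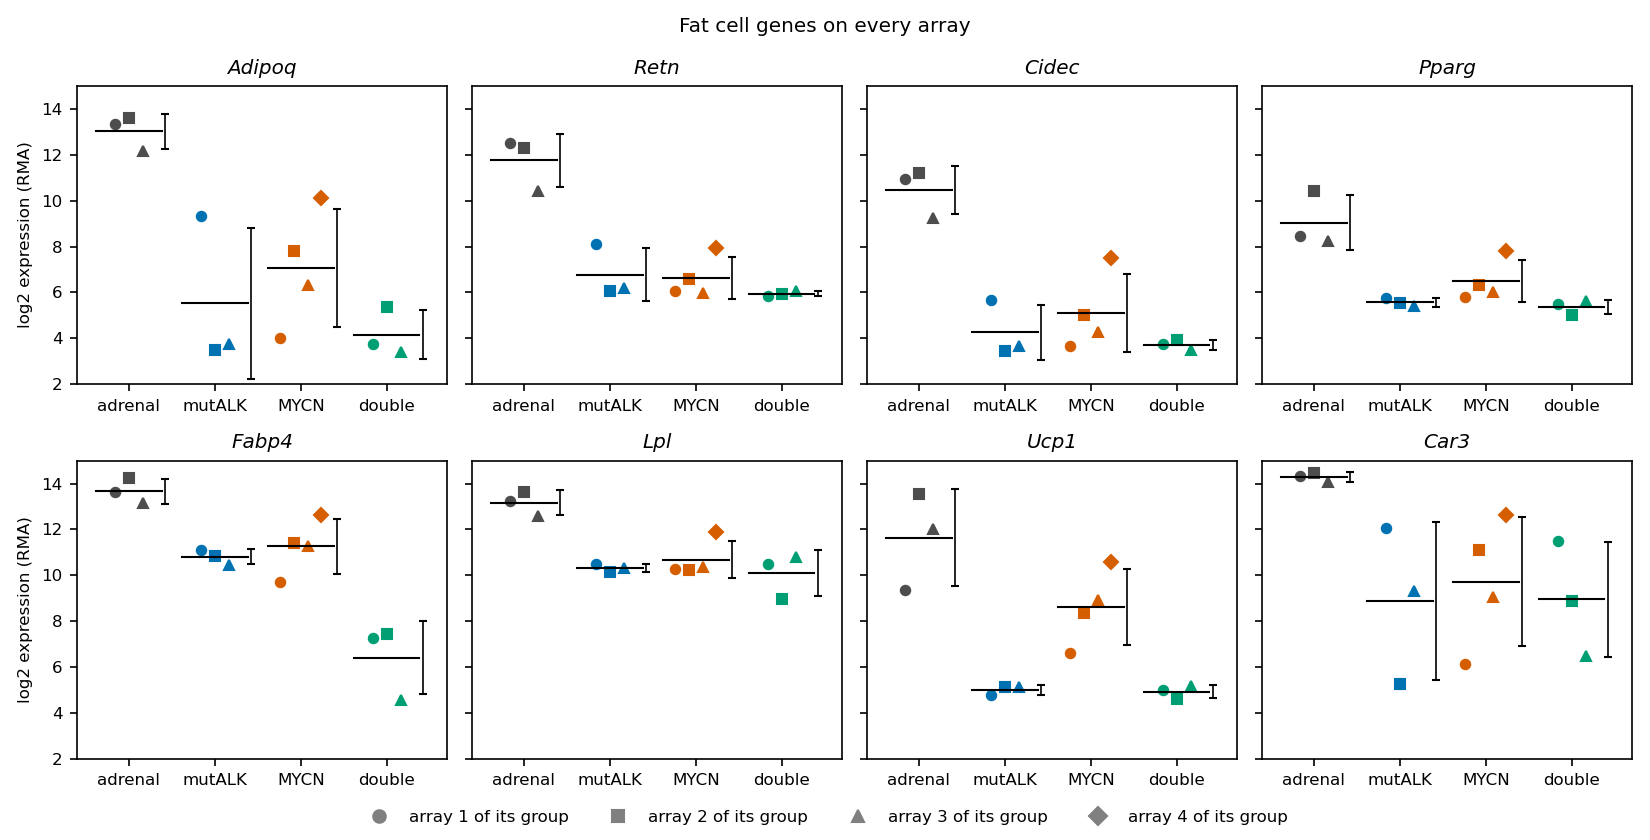
Log2 expression of the 8 measured fat cell genes on every array, by group (adrenal n = 3, mutALK n = 3, MYCN n = 4, double transgenic n = 3), with points for arrays, horizontal lines for group means and bars for 1 SD. The adrenal arrays lie above all tumour arrays for every gene except Ucp1, and MYCN 4 is the highest tumour array for 7 of the 8 genes.

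Of the secreted members, Adipoq, the hormone adiponectin, read 13.33, 13.59 and 12.17 in adrenal 1 to 3, 9.33, 3.49 and 3.74 in mutALK 1 to 3, 4.01, 7.8, 6.34 and 10.11 in MYCN 1 to 4, and 3.75, 5.36 and 3.38 in double transgenic 1 to 3. The adrenal arrays were all high, and the tumours were spread widely, with mutALK 1 and MYCN 4 far above the lowest tumours. In adrenal 1 Adipoq stood at percentile 99.8 of all probe sets of its array, and in mutALK 2 and double transgenic 3 at 11.5 and 9.2. A level that low may lie at the background of the array, so a difference from it may be a lower bound. Adipoq differed from adrenal by -7.51 ± 1.63 in mutALK (182-fold, adjusted p = 0.00294), -5.96 ± 1.52 in MYCN (62.4-fold, 0.00616) and -8.86 ± 1.63 in the double transgenic group (466-fold, 0.000766, limma).

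Retn, the hormone resistin, read 12.53, 12.3 and 10.43 in adrenal gland, 8.09, 6.06 and 6.17 in mutALK, 6.04, 6.59, 5.97 and 7.95 in MYCN, and 5.84, 5.92 and 6.07 in double transgenic tumours. Here mutALK 1 was the highest tumour, just above MYCN 4, and the other tumours lay close together. Retn fell, by differences of -4.98 ± 0.68 in mutALK, -5.12 ± 0.64 in MYCN and -5.81 ± 0.68 in the double transgenic group (adjusted p = 0.000136, 3.79e-05 and 2.89e-05, limma). These were falls of 31.6-, 34.7- and 56.2-fold.

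Cidec, which sits on the lipid droplet and lets droplets fuse, read 10.95, 11.19 and 9.26 in adrenal gland, 5.65, 3.46 and 3.66 in mutALK, 3.66, 5, 4.26 and 7.5 in MYCN, and 3.75, 3.92 and 3.47 in double transgenic tumours. Its order over the tumours was like that of Adipoq, with MYCN 4 highest and mutALK 1 next. Cidec fell, by differences of -6.21 ± 0.91 in mutALK (74.2-fold, adjusted p = 0.000212), -5.36 ± 0.85 in MYCN (41.2-fold, 0.000229) and -6.75 ± 0.91 in the double transgenic group (108-fold, 7.72e-05, limma).

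Pparg, the nuclear receptor that drives fat cell formation, read 8.44, 10.44 and 8.25 in adrenal gland, 5.77, 5.53 and 5.39 in mutALK, 5.82, 6.32, 6.01 and 7.81 in MYCN, and 5.49, 5.02 and 5.61 in double transgenic tumours. Adrenal 2 stood above the other adrenal arrays, and MYCN 4 lay just below adrenal 3. Pparg differed from adrenal by -3.48 ± 0.58 in mutALK, -2.55 ± 0.55 in MYCN and -3.67 ± 0.58 in the double transgenic group (11.2-, 5.86- and 12.7-fold, adjusted p = 0.000544, 0.00196 and 0.000268, limma).

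Fabp4, a carrier of fatty acids inside fat cells and also made by macrophages and capillary endothelium, read 13.63, 14.24 and 13.15 in adrenal gland, 11.12, 10.86 and 10.46 in mutALK, 9.72, 11.43, 11.29 and 12.64 in MYCN, and 7.25, 7.43 and 4.56 in double transgenic tumours. The double transgenic arrays lay apart, below every other array. Fabp4 differed from adrenal by -2.86 ± 0.78 in mutALK (7.26-fold, adjusted p = 0.0112), -2.4 ± 0.73 in MYCN (5.29-fold, 0.0164) and -7.26 ± 0.78 in the double transgenic group (154-fold, 1.56e-05, limma). Without adrenal 2 the MYCN difference was -2.12 and no longer passed (adjusted p = 0.0589).

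Lpl, the lipase that frees fatty acids from lipoproteins in the capillaries of fat and muscle, read 13.26, 13.65 and 12.58 in adrenal gland, 10.51, 10.13 and 10.34 in mutALK, 10.26, 10.25, 10.35 and 11.88 in MYCN, and 10.5, 8.97 and 10.82 in double transgenic tumours. Its tumours were close to one another except for MYCN 4, which was high, and double transgenic 2, which was low. Lpl fell, by differences of -2.84 ± 0.52 in mutALK, -2.48 ± 0.49 in MYCN and -3.07 ± 0.52 in the double transgenic group (7.15-, 5.58- and 8.38-fold, adjusted p = 0.00102, 0.00112 and 0.000444, limma). Its lowest tumour value, 8.97, was still above the array medians of 5.8 to 5.9. The dimmer Lpl probe set 1431056_a_at differed from adrenal by -3.6 ± 0.54, -2.99 ± 0.5 and -3.94 ± 0.54.

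Ucp1, the proton channel that makes heat in brown fat and is its defining gene, read 9.37, 13.55 and 12 in adrenal gland, 4.77, 5.11 and 5.13 in mutALK, 6.61, 8.36, 8.94 and 10.6 in MYCN, and 5, 4.63 and 5.17 in double transgenic tumours. The adrenal arrays differed among themselves by up to 4.18, and MYCN 4 lay above adrenal 1. Ucp1 differed from adrenal by -6.64 ± 1.01 in mutALK (99.4-fold, adjusted p = 0.00029) and -6.71 ± 1.01 in the double transgenic group (104-fold, 0.000185), where no array overlapped with adrenal gland. In MYCN it fell by 3.01 ± 0.95 (8.06-fold, adjusted p = 0.0194, limma). The MYCN call was lost under 7 of 24 alternatives, among them the fits without adrenal 2 (-2.06, adjusted p = 0.092), without adrenal 3 (0.0602) and without MYCN 1 (0.05), and array weights moved the difference to -0.98 (0.216). Without the 5 arrays with a liver marker mean above 8, called the liver marker arrays, it was -1.97 (0.241).

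Car3, carbonic anhydrase 3, an enzyme abundant in fat, slow muscle and liver, read 14.35, 14.46 and 14.07 in adrenal gland, 12.07, 5.26 and 9.32 in mutALK, 6.15, 11.11, 9.04 and 12.62 in MYCN, and 11.51, 8.87 and 6.48 in double transgenic tumours. The adrenal arrays were alike and the tumours of each group ranged over several log2 units. Car3 differed from adrenal by -5.41 ± 1.88 in mutALK, -4.56 ± 1.76 in MYCN and -5.34 ± 1.88 in the double transgenic group (42.4-, 23.6- and 40.4-fold, adjusted p = 0.0368, 0.049 and 0.0344, limma). These calls were lost under 7, 12 and 5 of 24 alternatives, with adjusted p up to 0.151, 0.128 and 0.127, and in every comparison without any 1 of the 3 adrenal arrays. The call also went without mutALK 2 or 3 in the mutALK comparison, without MYCN 1, 2 or 3, mutALK 3 or double transgenic 2 in the MYCN comparison, and without double transgenic 2 or 3 in the last. The other 3 Car3 probe sets fell too. The dimmest of them, 1453588_at, read 8.4, 8.93 and 6.68 in adrenal gland and 2.53 to 4.11 in tumours, and differed from adrenal by -5.26 ± 0.51, -4.87 ± 0.47 and -5.08 ± 0.51 (adjusted p at most 1.33e-05 over all probe sets). The mean of 14 liver marker genes was between 8.33 and 11.58 on adrenal 2, mutALK 1, mutALK 3, MYCN 2 and double transgenic 1 and between 4.3 and 5.57 on the other arrays. The mutALK arrays had the same order for Car3 as for the liver markers, and double transgenic 1 was the highest of its group for both. The other orders differed. MYCN 4, the highest tumour for Car3 at 12.62, had a liver mean of 4.63, and MYCN 2, at 11.11 for Car3, had one of 8.33. Double transgenic 2 was above double transgenic 3 for Car3 (8.87 and 6.48) and below it for the liver mean (4.3 and 5.57). The part of liver RNA in the Car3 level was not tested.

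**Figure D2:**
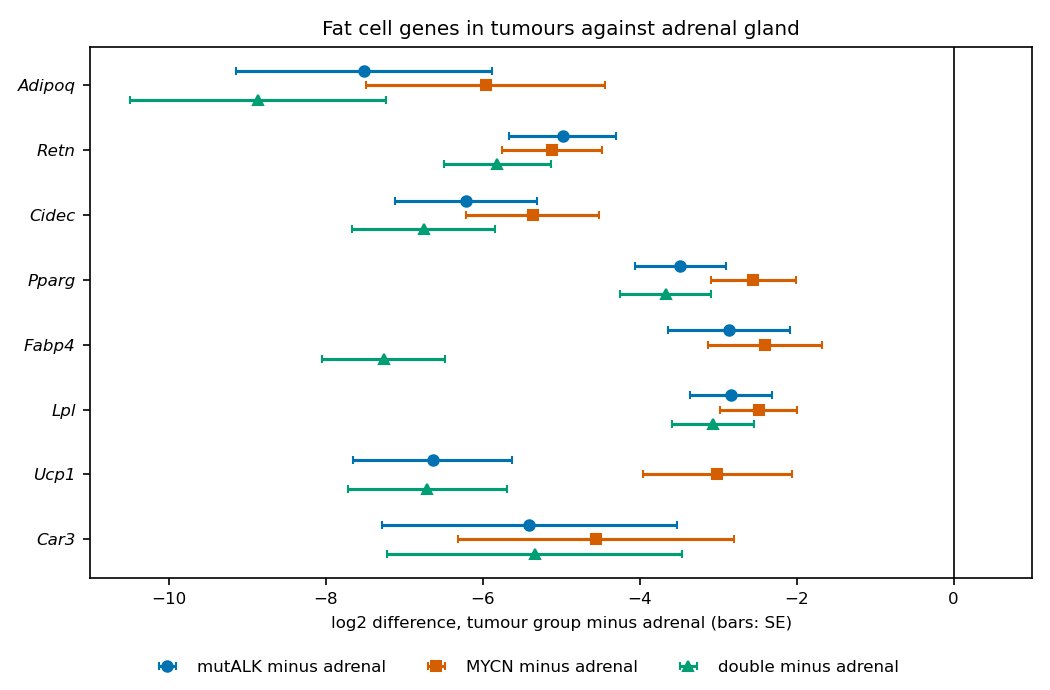
Log2 difference of each tumour group from adrenal gland for the 8 measured fat cell genes (points, bars 1 SE, limma fit over 13 arrays). All points lie below 0, with the smallest difference -2.4 for Fabp4 in MYCN and the largest -8.86 for Adipoq in double transgenic tumours.

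Without the 5 arrays of high liver marker mean, which leaves 2 adrenal, 1 mutALK, 3 MYCN and 2 double transgenic arrays, 6, 5 and 8 of 8 members still passed as lower in the mutALK, MYCN and double transgenic groups. In that fit the spread of the lone mutALK array is taken from the other groups. Fabp4 in mutALK was then at -2.53 (adjusted p = 0.222) and in MYCN at an adjusted p of 0.134, and Lpl in mutALK was at 0.0542. The MYCN count was also 5 without adrenal 2 alone.

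Among the tumours, Ucp1 and Fabp4 were the members that passed the test. Ucp1 was lower in mutALK than in MYCN tumours, with a difference of -3.62 ± 0.95 (12.3-fold, adjusted p = 0.0126, limma) and lower in double transgenic tumours than in the MYCN group, at -3.69 ± 0.95 (12.9-fold, 0.0264). The lowest MYCN array, at 6.61, lay above the highest mutALK array, at 5.13, and above the highest double transgenic array, at 5.17. Between double transgenic and mutALK tumours the Ucp1 difference was -0.07 ± 1.01. The mutALK call was lost when arrays that share a title number were averaged (adjusted p = 0.0654) and without the liver marker arrays (0.142). The double transgenic call was lost under 8 of 24 alternatives, with an adjusted p of 0.0605 to 0.0918, among them the fits without MYCN 2, 3 or 4 and without double transgenic 1, 2 or 3.

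Fabp4 was lower in double transgenic than in MYCN tumours, with a difference of -4.86 ± 0.73 (29.1-fold, adjusted p = 0.00245, limma) and lower than in mutALK tumours, at -4.4 ± 0.78 (21.2-fold, 0.00578). Without the liver marker arrays the second difference was -4.87 and did not pass (adjusted p = 0.074). A lower level in double transgenic tumours was shared by its probe sets to different degrees. The probe set 1451263_a_at, which read 12.19, 12.96 and 11.96 in adrenal gland and 6.35, 6.58 and 4.32 in double transgenic tumours, lay at -4.56 from MYCN (adjusted p = 0.0011 over all probe sets) and at -4.11 from mutALK (0.00332). The probe sets 1424155_at and 1425809_at read between 3.73 and 6.28 and between 4.78 and 6.08 in the tumours. In double transgenic tumours they differed from MYCN by -1.46 (0.0491) and -0.83 (0.153) and from mutALK by -0.97 (0.198) and -0.52 (0.413). Over all members, 1, 4 and 2 of the 15 probe sets passed as lower in mutALK minus MYCN, double transgenic minus MYCN and double transgenic minus mutALK. The shares of all probe sets were 15.9%, 7.69% and 6.54%, so the first count was below its share. All 4 Fabp4 probe sets thus had negative differences in double transgenic tumours, and those that were dim in every tumour had the small ones.

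**Figure D3:**
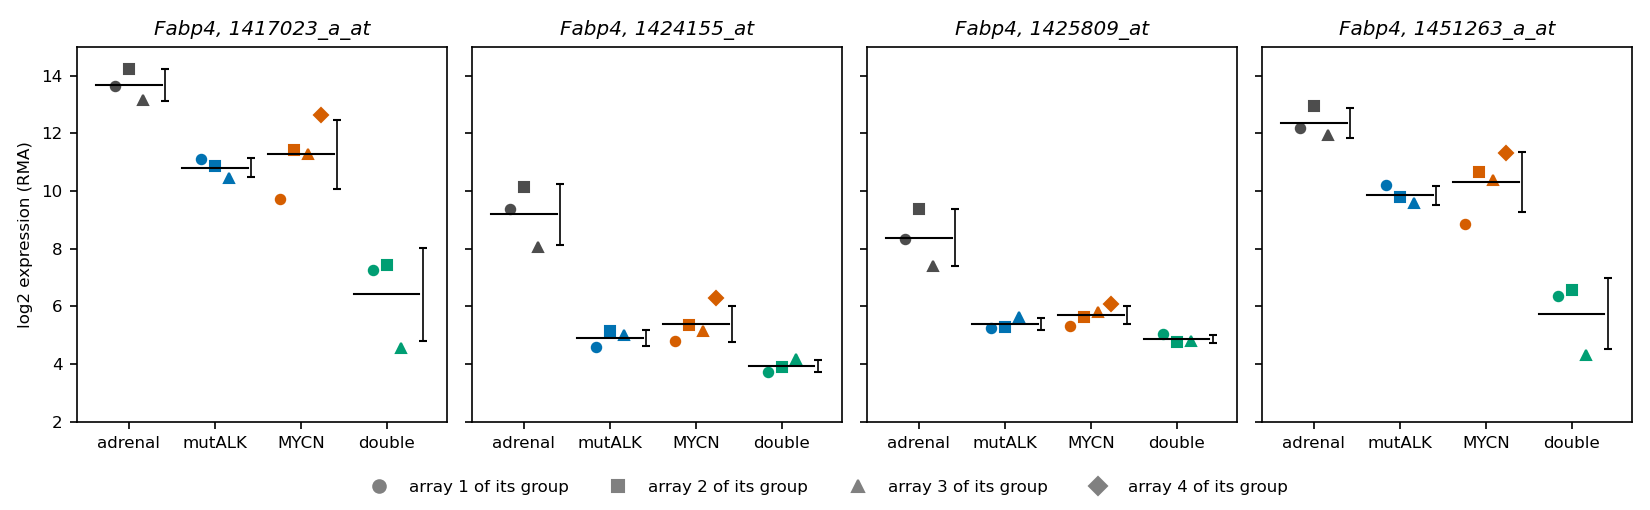
Log2 expression of the 4 Fabp4 probe sets on every array, by group, with points for arrays, lines for group means and bars for 1 SD. In the probe sets 1417023_a_at and 1451263_a_at the double transgenic arrays lie below all others, and in the other probe sets every tumour lies at or below 6.28.

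In counts, 1 of 8 members passed as lower in mutALK than in MYCN, which is not above the share of 17.2% of all genes. In double transgenic tumours 2 passed as lower than in MYCN (6.66%) and 1 as lower than in mutALK tumours (6.04%). As higher, 13.6%, 6.16% and 8.39% of all genes passed in these comparisons. The positive differences among the members, 0.14 for Retn in mutALK minus MYCN and 0.07 for Car3 in double transgenic minus mutALK, did not pass (adjusted p = 0.91 and 0.987, limma). The median differences of the members were -0.85, -1.25 and -0.38, and those of all genes 0.00265, -0.0308 and -0.0224. Pparg also lay lower without overlap, at -0.93 in mutALK and -1.12 in double transgenic against MYCN, but did not pass (adjusted p = 0.245 and 0.218, limma). Together 2, 3 and 1 members lay lower without overlap, against 21.6%, 16.2% and 16% of all genes. The first and last of these counts were near the background. For the other members the tumour groups overlapped and no difference passed. Adipoq, for example, had group means of 5.52 ± 3.3 in mutALK, 7.06 ± 2.56 in MYCN and 4.16 ± 1.05 in the double transgenic group.

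Macrophages and capillary endothelium also make Fabp4, and their markers were read on the same arrays. The mean of 12 endothelial markers was 8.98 to 9.25 in adrenal gland, 6.84 to 7.57 in mutALK, 6.66 to 7.88 in MYCN and 5.76 to 6.34 in double transgenic tumours. Of the 12, 8 passed as lower in double transgenic than in MYCN tumours (6.66% of all genes) and 7 as lower than in mutALK tumours (6.04%), and 12 were lower than adrenal in each tumour group, against 21%, 24.8% and 24.2% of all genes in the mutALK, MYCN and double transgenic groups. The 12 macrophage markers had means of 7.97 to 8.85 in adrenal gland, 8.86 to 9.95 in mutALK, 8.56 to 9.13 in MYCN and 7.91 to 8.89 in double transgenic tumours. Against mutALK, 4 of these passed as lower in double transgenic tumours (6.04% of all genes), with a median difference of -0.96. Against MYCN, 0 passed in limma, 3 were lower at an unadjusted p under 0.05, and the median difference was -0.53. The mean of 8 fibroblast markers was 9.19 to 10.52, 7.92 to 9.57, 8.09 to 8.89 and 6.38 to 7.95 in the same order of groups. The endothelial and fibroblast markers had, like Fabp4, their lowest group mean in double transgenic tumours. So did the macrophage markers, but their mean difference from adrenal gland there was only -0.0708. The part of these cell types in the Fabp4 level was not tested.

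In the adrenal, mutALK and MYCN groups 1 array was the highest for most members. In the double transgenic group array 3 was the highest for 4 members, array 2 for 3 and array 1 for 1. MYCN 4 was the highest MYCN array for 8 of 8 members and the highest tumour for 7, with a mean over the 8 members of 10.14 against 5.69 to 8.41 in the other tumours. Adrenal 2 was the highest adrenal array for 7 members and mutALK 1 the highest mutALK array for 7. The exceptions were Retn, highest in adrenal 1, and Ucp1, highest in mutALK 3. The member mean was 11.98, 12.93 and 11.49 in adrenal 1 to 3. Among the adrenal arrays the spread was widest in the brown fat member, Ucp1. In adrenal 2 Ucp1 was above its level in adrenal 1 by 4.18 and Pparg by 1.99, and the other members differed there by -0.24 to 0.6. Adrenal 1 was above adrenal 3 for Retn by 2.1, Cidec by 1.69 and Adipoq by 1.16, and below it for Ucp1, at a difference of -2.63. Adrenal 1, the lowest adrenal array for Ucp1, thus lay above adrenal 3 for both hormones.

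The adrenal and tumour labels were checked with other markers. The mean of 11 adrenal cortex genes was 11.56 to 12.93 in adrenal gland and 5.3 to 6.98 in tumours, with the highest tumour value in double transgenic 1. The mean of 7 sympathetic neuroblast genes was 6.51 to 9.27 in adrenal gland and 10.74 to 11.96 in tumours. That of 8 chromaffin cell genes overlapped, at 10.05 to 11.12 in adrenal gland and 9.55 to 11.75 in tumours. Adrenal 2 had the highest mean of 7 kidney genes (6.16, 4.78 to 4.94 elsewhere) and of 9 pancreas genes (7.12, 5.17 to 6.19 elsewhere). The part of such tissue in its fat gene levels was not tested. The 13 skeletal muscle genes had a mean of 7.89 in MYCN 3 and 6.77 in double transgenic 1 and of 4.59 to 5.06 elsewhere. The muscle and liver means were both high in double transgenic 1, which had the highest Car3 of its group, and MYCN 3, with the highest muscle mean, read below MYCN 2 and MYCN 4 for Car3. Their part in these levels was not tested.

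Genes outside the members whose profile was most like that of Adipoq were found by the root mean square difference of profiles over the 13 arrays, each centred on its own mean. They are given as levels without a test, since the profile chose them. The closest 8 were Ogn (1.5), an extracellular matrix protein, Thrsp (1.51), a regulator of fat synthesis, Cox8b (1.73), a muscle and brown fat subunit of cytochrome c oxidase, Mme (1.75), a membrane peptidase, Mrap (1.76), a partner of the ACTH receptor found in adrenal cortex and fat, Agpat2 (1.78), an enzyme of triglyceride synthesis, Ifi27l2a (1.8), an interferon-induced gene, and Adig (1.81), a small fat cell protein. The median distance over all genes was 3.76. Among the members, Cidec was the closest to Adipoq, at 1.29, and Lpl the farthest, at 2.73. Thrsp read 12.41 to 13.99 in adrenal gland and 4.2 to 11.19 in tumours, with the highest tumour in MYCN 4. Ogn and Ifi27l2a had their highest tumour in mutALK 1, at 7.73 and 10.42.

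The profile most like that of Ucp1 was that of Cox8b (0.9), followed by Cidea (1.02), a lipid droplet protein of brown fat, Cox7a1 (1.06), another tissue-specific subunit of cytochrome c oxidase, and Otop1 (1.25), a proton channel found in brown fat. Then came Btnl9 (1.28), a butyrophilin-like membrane protein, and Cd36, a fatty acid transporter, Gpd1, which makes glycerol phosphate, and Pdk4, which restrains glucose oxidation, all at 1.38. The median distance over all genes was 2.94, and the closest members were Pparg (1.61) and Cidec (1.65). Cox8b read 10.56, 13.58 and 11.16 in adrenal 1 to 3 and 5.82, 7.49, 7.57 and 9.65 in MYCN 1 to 4, against 4.55 to 6.33 in the other tumours. Adrenal 2 and MYCN 4 were the highest arrays of their groups for Cox8b, as they were for Ucp1. All 8 of these genes had their highest tumour in MYCN 4. The Ucp1 profile chose these genes, so shared highest arrays follow largely from the choice and are no separate result.

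**Figure D4:**
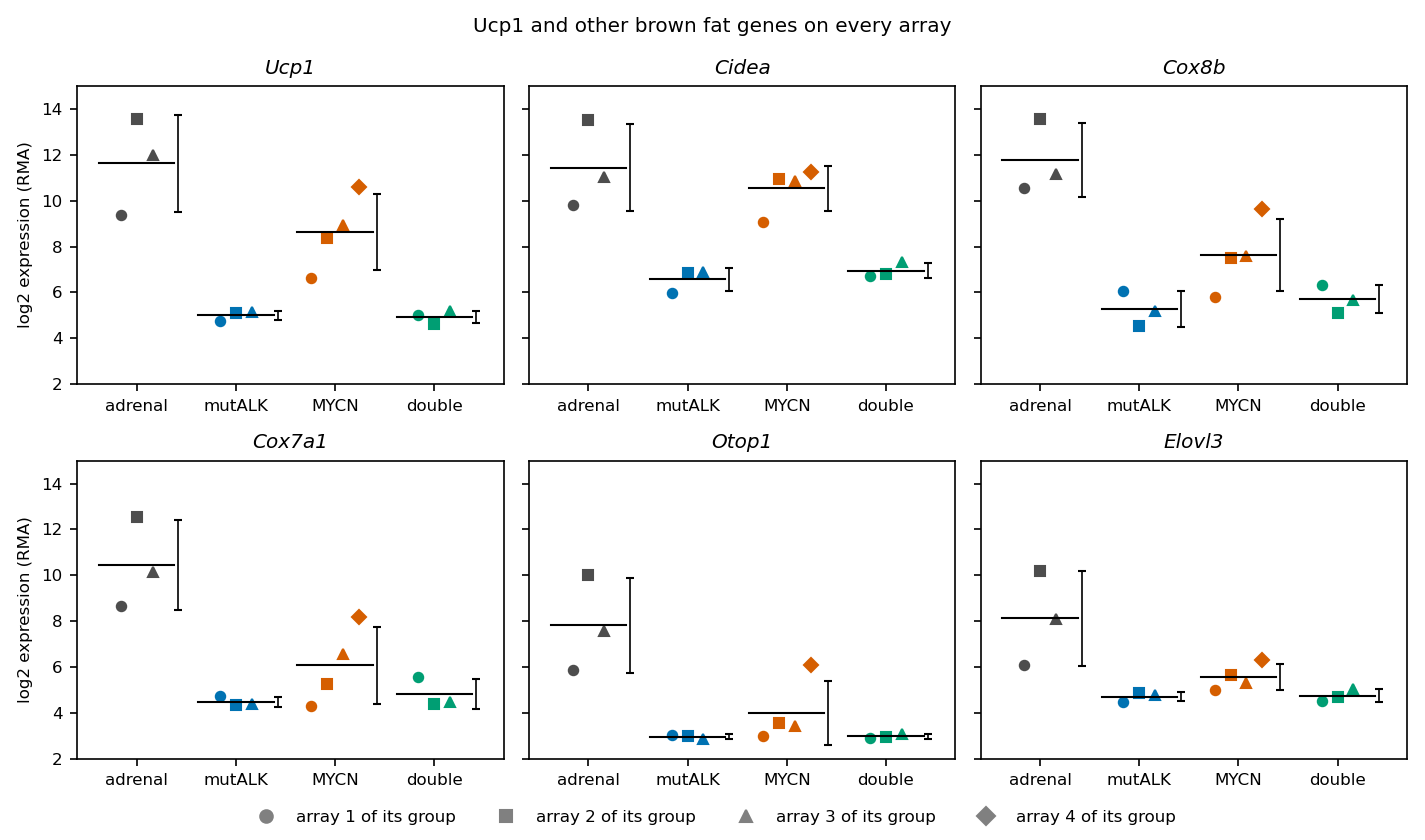
Log2 expression of Ucp1 and 5 further brown fat genes on every array, by group, with points for arrays, lines for group means and bars for 1 SD. In all 6 genes adrenal 2 is the highest array, and MYCN 4 is the highest tumour array. Cox8b, Cidea, Cox7a1 and Otop1 were chosen for a profile like that of Ucp1, and Elovl3 was picked from the brown fat list. Other genes of that list differ. The highest tumour is double transgenic 1 for Ppargc1a (7.98), mutALK 2 for Mpzl2 (7.07) and MYCN 2 for Kcnk3 (8.46).

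The further brown fat genes were lower in the tumours for the most part. Of 19 measured, 13 passed as lower in mutALK, 10 in MYCN and 12 in the double transgenic group, against 21%, 24.8% and 24.2% of all genes, with medians of -2.1, -1.61 and -2.07. Cox8b differed from adrenal by -6.49 ± 0.93, -4.14 ± 0.87 and -6.07 ± 0.93 in the mutALK, MYCN and double transgenic groups (adjusted p = 0.000182, 0.00172 and 0.000199, limma). Cox7a1 differed from adrenal by -5.97 ± 1.01, -4.37 ± 0.94 and -5.63 ± 1.01. Kcnk3, a potassium channel found in brown fat and also in adrenal cortex, differed from adrenal by -5.24 ± 0.23 in mutALK, Mpzl2, a cell adhesion protein, by -4.12 ± 0.93 in MYCN and Otop1 by -4.85 ± 0.93 in the double transgenic group. As higher, 21.3%, 25.4% and 24.3% of all genes passed, and of these 19 the gene that did was Zic1, a developmental zinc finger factor, in double transgenic tumours (0.78 ± 0.27, adjusted p = 0.0322), named after its value was seen. That call was lost under 6 of 23 alternatives (adjusted p up to 0.155), among them the fits without adrenal 1 or 3. Zic1 had a mean of only 2.53 in adrenal gland and 2.61 in mutALK. The lowest value on any array was 2.04, so Zic1 may lie at the background. The mutALK count was 8 when the compared groups were fitted alone and 7 without the liver marker arrays, and the MYCN count 6 without the latter. With the dimmest 40% of genes left out the counts of genes called in either direction were 4 in MYCN and 7 in double transgenic tumours.

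Cidea set the MYCN tumours apart from the other tumours. It read 9.79, 13.5 and 11.04 in adrenal gland, 5.99, 6.84 and 6.89 in mutALK, 9.06, 10.96, 10.86 and 11.26 in MYCN, and 6.71, 6.79 and 7.33 in double transgenic tumours. The MYCN arrays overlapped with adrenal gland and lay above every other tumour. Cidea differed from adrenal by -4.87 ± 0.8 in mutALK (adjusted p = 0.000491) and -4.5 ± 0.8 in the double transgenic group (0.000623), and its difference of -0.91 ± 0.75 in MYCN did not pass (0.357, limma). It was lower in mutALK than in MYCN, at -3.96 ± 0.75 (0.00213), and in double transgenic than in MYCN, at -3.59 ± 0.75 (0.0113), and both were called under all 24 alternatives. Since its profile was picked as like that of Ucp1 over the same arrays, these contrasts are not separate from those of Ucp1. Between mutALK and MYCN, 4 of the 19 brown fat genes passed as lower, a count near the background of 17.2% of all genes. Besides Cidea these were Kcnk3 (-1.74 ± 0.21, adjusted p = 0.000163), Prdm16, a factor of brown fat identity (-1.34, 0.0469), and Esrra, a receptor that drives mitochondrial genes (-0.84, 0.0168), the last 2 named after their values were seen. The Prdm16 call was lost under 10 of 24 alternatives, among them averaging arrays that share a title number (adjusted p = 0.18), the title number as a random block (0.0868) and the fits without adrenal 1, mutALK 2 or 3, any 1 MYCN array or double transgenic 2. The Esrra call was lost under that averaging (0.0799) and without mutALK 2 (0.0842). The count was 2 when arrays sharing a title number were averaged or without mutALK 2, and 7 with array weights or without adrenal 2.

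Ppargc1a, the coactivator that links cold to mitochondrial genes in brown fat and is also expressed in neurons, muscle and liver, went another way. It read 5.17, 8.05 and 6.1 in adrenal gland, 4.94, 5.8 and 5.04 in mutALK, 5.06, 4.69, 5.42 and 4.9 in MYCN, and 7.98, 7.42 and 6.98 in double transgenic tumours. The double transgenic arrays lay above all other tumours and within the range of the adrenal arrays. In double transgenic tumours Ppargc1a was above its MYCN level by 2.44 ± 0.54 (adjusted p = 0.014, limma), at a background of 6.16% of genes called higher, and above its mutALK level by 2.2 ± 0.58 (0.0285), at 8.39%. It was named after its values were seen, and the second call was lost under 8 of 23 alternatives, among them the fits without any 1 mutALK array and without double transgenic 1 or 2. Of the 19 brown fat genes, 1 passed as higher and 1 as lower in double transgenic than in MYCN tumours, against 6.16% and 6.66% of all genes. Against mutALK tumours, 2 passed as higher and 0 as lower, against 8.39% and 6.04%. These counts were near the background. Ucp1 and Ppargc1a thus lay in opposite order in double transgenic and MYCN tumours, but the list as a whole did not set these groups apart.

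Of 18 further genes of the lipid droplet and of lipolysis, 16 passed as lower in mutALK, 14 in MYCN and 15 in the double transgenic group, against 21%, 24.8% and 24.2% of all genes, with medians of -2.95, -2.08 and -3.79. Plin4, a coat protein of droplets, differed from adrenal by -4.82 ± 0.56, -4.27 ± 0.52 and -5.13 ± 0.56 (adjusted p = 4.41e-05, 3.27e-05 and 1.67e-05, limma). Lipe, the hormone-sensitive lipase, differed from adrenal by -4.42 ± 0.5 in mutALK and -3.77 ± 0.46 in MYCN. G0s2, which inhibits the first lipase of lipolysis, differed from adrenal by -3.55 ± 0.66 in MYCN, and Mgll, the lipase of the last step, by -4.56 ± 0.5 in the double transgenic group. Hilpda, a droplet protein induced by low oxygen, rose by 0.89 ± 0.2, 1.24 ± 0.18 and 0.93 ± 0.2, and was named after its values were seen. All 11 measured adrenal cortex markers passed as lower in these comparisons too, and their part in the droplet counts was not tested.

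Of 24 genes of fat synthesis and uptake, 19, 23 and 22 passed as lower in the mutALK, MYCN and double transgenic groups, against 21%, 24.8% and 24.2% of all genes, with medians of -2.74, -2.79 and -2.64. Thrsp differed from adrenal by -7.53 ± 1.25, -5.33 ± 1.17 and -6.09 ± 1.25 (adjusted p = 0.000522, 0.00238 and 0.00167, limma). In mutALK, Gpd1 differed from adrenal by -5.12 ± 0.8 and Scd1, which desaturates fatty acids, by -5.11 ± 1.2. Agpat2 differed from adrenal by -5.62 ± 0.81 in MYCN and -6.4 ± 0.87 in the double transgenic group. Pcx, pyruvate carboxylase, differed from adrenal by -4.72 ± 0.47 in MYCN, and Cd36 by -5.82 ± 0.56 in the double transgenic group. The gene that rose in each group was Fabp5, a relative of Fabp4 also made by nerve tissue and skin, by 1.65 ± 0.44, 1.63 ± 0.41 and 1.51 ± 0.44 (adjusted p = 0.01, 0.00587 and 0.0137), named after its values were seen. With the compared groups fitted alone, its mutALK and double transgenic calls were lost (0.0848 and 0.0907). The 11 adrenal cortex markers all fell in the same comparisons, and their part in these counts was not tested.

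Of 16 transcription factors of fat cells, 11, 14 and 13 passed as lower, against 21%, 24.8% and 24.2% of all genes, with medians of -1.06, -1.42 and -1.56. Cebpb and Cebpa, factors of early and late fat cell formation, fell in each group, Cebpb by differences of -3.61 ± 0.53, -3.96 ± 0.5 and -5.1 ± 0.53 and Cebpa by -3.04 ± 0.51, -3.16 ± 0.48 and -3.17 ± 0.51 (adjusted p at most 0.000571, limma). Stat5a, a factor downstream of growth hormone, differed from adrenal by -2.8 ± 0.28, -3.43 ± 0.26 and -3.37 ± 0.28. In the same comparisons all 11 measured adrenal cortex markers passed as lower. Cebpb read 12.93, 12.68 and 13.04 in adrenal 1 to 3, and the cortex mean was 12.53, 11.56 and 12.93. The part of cortex cells in these levels and counts was not tested. The genes that rose were Ebf1 in mutALK (1.68 ± 0.35, adjusted p = 0.00244) and Zfp423 in MYCN (1.54), both also factors of other lineages and both named after their values were seen. Ebf1 fell in MYCN by 2.14 ± 0.33 and was higher in mutALK than in MYCN by 3.83 ± 0.33 (adjusted p = 2.6e-05).

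Of 10 further genes, most of which code for secreted proteins, 2, 7 and 3 passed as lower in the mutALK, MYCN and double transgenic groups. Their median differences were -1.09, -2.23 and -1.18. Over all genes the shares were 21%, 24.8% and 24.2%, so the mutALK and double transgenic counts were near the background. Lep, the hormone leptin, differed from adrenal by -2.59 ± 0.67 in mutALK and -2.62 ± 0.67 in the double transgenic group (adjusted p = 0.00806 and 0.00628, limma), calls lost when the compared groups were fitted alone (0.0736 and 0.0578) and without the liver marker arrays (0.23 and 0.112). Angptl4, which inhibits lipoprotein lipase, differed from adrenal by -2.42 ± 0.38 and -2.92 ± 0.38 in the same groups. In MYCN the largest falls were those of Orm1 and Rbp4, plasma proteins made by liver and fat, at -5.8 ± 1.84 and -4.36 ± 1.68 (adjusted p = 0.02 and 0.0488), and Itih5 fell by 3.86 ± 0.58. The call of Orm1 was lost under 4 of 24 alternatives (without adrenal 1 or 2, or MYCN 1 or 3) and that of Rbp4 under 9, those 4 among them, and the part of liver RNA in both was not tested. Nnat, expressed in nerve tissue as well as fat, rose by 3.48 ± 0.37, 2.72 ± 0.34 and 2.98 ± 0.37. The count of genes called in either direction in mutALK went from 3 to 6 with array weights, 5 without adrenal 2 and 7 without the liver marker arrays, and in MYCN from 8 to 5 without adrenal 1, adrenal 2, MYCN 1 or MYCN 3.

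**Figure D5:**
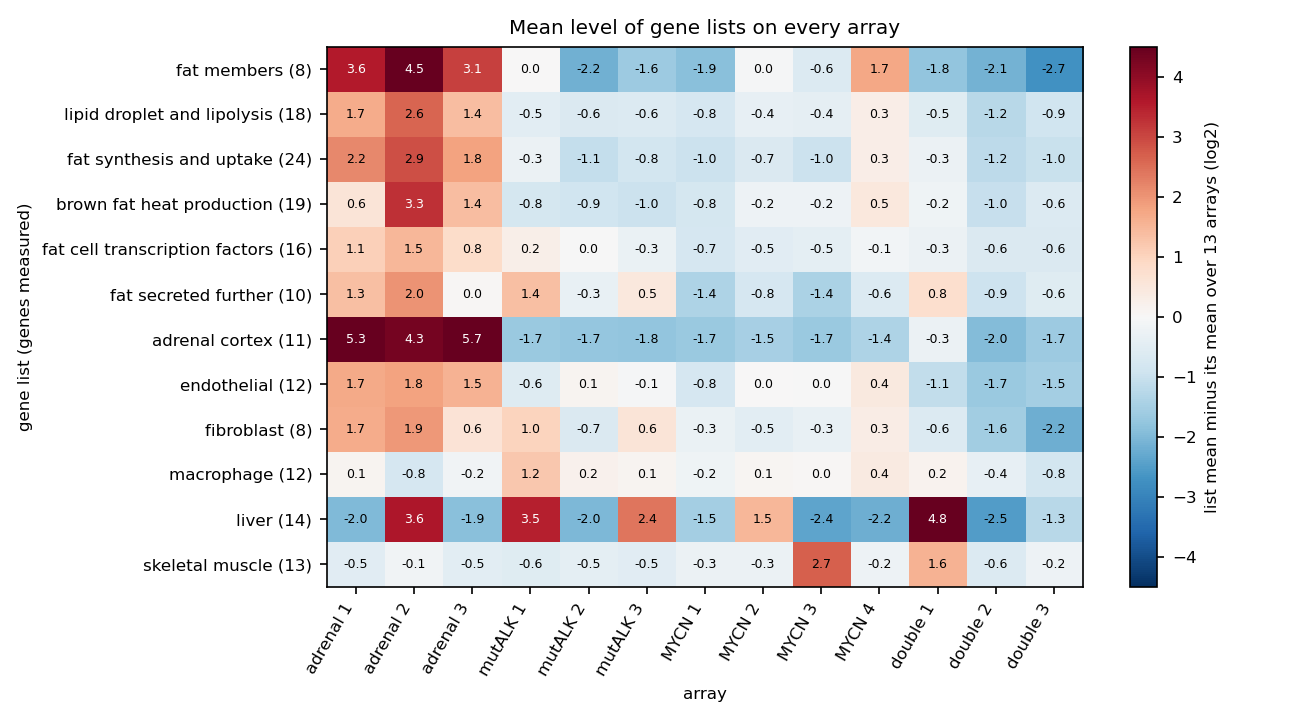
Mean log2 level of 12 gene lists on every array, each minus its own mean over the 13 arrays (colour and printed value, number of genes measured in brackets). The fat lists are higher in the 3 adrenal arrays than in every tumour, except that of further, mostly secreted, proteins. Its mean of 7.98 in adrenal 3 lies below 9.3 in mutALK 1, 8.71 in double transgenic 1 and 8.42 in mutALK 3. In adrenal 1 it is 9.28, just below mutALK 1. For the brown fat list, adrenal 1 (7.06) lies only just above MYCN 4 (6.96). MYCN 4 is the tumour with the highest member mean, and the liver list is high on 5 arrays from all 4 groups.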

How the data were processed

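Mouse Affymetrix arrays of 13 samples were used (45101 probe sets). The values are log2 expression deposited by the authors, made by RMA in Partek per the submitters' processing notes, which give no versions. RMA corrects background and makes the arrays alike in distribution, so levels are relative. Detection calls were not used, and the number of arrays limits the precision. Probe sets with exactly 1 symbol (34945) were matched to a RefSeq table (GRCm38.p6), and the brightest probe set on average stood for each of 18193 genes. Groups came from the genotype labels. A limma 3.58.1 fit in R 4.3.3 (lmFit, eBayes, 1 mean per group, 9 residual and 2.28 prior degrees of freedom) tested 6 comparisons two-sided, called at a Benjamini-Hochberg adjusted p under 0.05 over all genes, and was tested on simulated data. Named were all members, the 8 genes most like Adipoq and the 8 most like Ucp1, and up to 3 called genes of each further list per comparison with adrenal gland by size. The members and lists were chosen with earlier results of these data known. The 24 alternatives were other scalings, probe set choices, filters, variance models, array weights, the compared groups alone, averaging or blocking shared title numbers, and leaving out each array or the 5 arrays of liver marker mean above 8. Plots used matplotlib 3.10.9 under Python 3.11.15.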

Additional observations from a re-analysis of the deposited data

Results flagged for a closer look

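Lpl stood apart on MYCN 4 in both of its probe sets, at 11.88 in 1415904_at and 9.72 in 1431056_a_at, each farther from the next MYCN array than the spread of the other 3 arrays allows at the 95% level of Dixon's test. These were 2 of 15 probe sets tested in the MYCN group, the only group of at least 4 arrays, and chance flags about 1 in 20 groups. The 2 probe sets read the same gene on the same array.

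Members that differed between tumours of different drivers, by the limma contrast between the groups, were Ucp1 and Fabp4. The difference of Ucp1 was -3.62 in mutALK minus MYCN (adjusted p = 0.0126) and -3.69 in double transgenic minus MYCN (0.0264). In mutALK minus MYCN 17.2% of all genes passed as lower, and the 1 of 8 members that did is not above that share. The difference of Fabp4 was -4.86 in double transgenic minus MYCN (0.00245) and -4.4 in double transgenic minus mutALK (0.00578).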

How the results depend on the processing

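Of 28 single-gene results that passed the test, 18 passed under all alternatives that could be run and 0 changed direction. With each array left out in turn, 5 to 8 members passed in MYCN minus adrenal and 1 to 2 in double transgenic minus MYCN tumours. Without the arrays of high liver marker mean, 5 passed in MYCN minus adrenal, 0 in mutALK minus MYCN, 1 in double transgenic minus MYCN and 0 in double transgenic minus mutALK. With arrays sharing a title number averaged, 0 passed in mutALK minus MYCN and 1 in double transgenic minus MYCN. With the dimmest 40% of genes left out, 7 members were measured, and this setting moved the median of all genes from -0.03 to 0.101 in double transgenic minus adrenal and from -0.0182 to 0.0968 in MYCN minus adrenal.

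Of 20 results that did not pass, 9 changed sign somewhere and 0 gained a call. With each array left out in turn, the difference in mutALK minus MYCN ran from -0.502 to 0.0411 for Lpl, from -0.521 to 0.572 for Retn and from -2.44 to 0.965 for Car3. In double transgenic minus MYCN, that of Car3 ran from -2.05 to 0.461. In double transgenic minus mutALK, it ran from -2.37 to 0.553 for Adipoq, from -0.939 to 0.158 for Cidec, from -0.589 to 0.335 for Lpl, from -0.187 to 0.0819 for Ucp1 and from -1.74 to 1.66 for Car3. Without the liver marker arrays, Retn was -0.588 in mutALK minus MYCN, and Adipoq and Cidec were 0.883 and 0.238 in double transgenic minus mutALK. With title numbers averaged, Car3 was 0.0637 in mutALK minus MYCN and -0.726 in double transgenic minus mutALK. In the latter comparison Car3 was -0.0956 as the mean of its probe sets and -0.35 with the title number as a random block, and Ucp1 was 0.00894 after quantile normalization again. The cause of these changes was not tested. No paired analysis was possible because the labels give no replicate numbers shared across the groups.

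The number of arrays limits the precision, and the lowest tumour levels of Adipoq, Cidec and the dim probe sets were not tested against the background of the arrays.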
